A study of Mus musculus with 6 samples.

Results

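The circadian clock genes described here are Arntl, Clock, Per1, Per2, Per3, Cry1, Cry2, Nr1d1, Nr1d2 and Dbp. They were chosen by name, and each has 1 row in the deposited table, so there are 10 genes of 21534 rows. RNA came from ileal organoids of wild-type C57Bl/6 mice, self-organising epithelial cultures grown from intestinal stem cells. All cultures had first been kept for 96 hours with 10 µM CHIR99021, which blocks GSK3 and so turns on Wnt signalling. Then 3 libraries were made after 24 hours with vehicle (DMSO) and 3 after 24 hours with 10 µM all-trans retinoic acid, a vitamin A derivative that activates nuclear receptors. The labels give no age of the mice, no clock hour of harvest and no step that would synchronise the cells. There was 1 time point, so levels at that time were compared and no rhythm could be measured. Whether replicate libraries trace back to different mice or wells is not stated, so a p-value here reflects just the scatter among these 6 samples, possibly technical.

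The mammalian clock is a transcriptional feedback loop that runs in nearly every cell, including those of the gut lining. BMAL1 (encoded by Arntl) and CLOCK bind E-boxes and switch on the Per and Cry genes, whose proteins return to the nucleus and inhibit them. A second loop is closed by REV-ERBα and REV-ERBβ (Nr1d1 and Nr1d2), which repress Arntl through elements shared with the activating ROR receptors. DBP, an output factor, binds D-boxes in downstream genes and in some clock genes. In the intestine the clock is known for daily rhythms of nutrient transport, cell division and drug handling.

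RefSeq promoter sequences (GRCm38.p6, the patch release of the build mm10) were found for 9 of the 10 genes, with 13 start sites in all. The stretches below are shown because they hold letters that match motifs known to bind clock factors. Capitals mark an E-box (CACGTG), its variant CACGTT, a D-box (TTATGTAA or TTACGTAA) or a ROR and REV-ERB element (RRE), on either strand. The first 4 are the 250 bases before the start site on the gene's strand, and the last is a 30-base stretch around the element in Arntl.
Cry1, chr10:85185055-85185304, minus strand: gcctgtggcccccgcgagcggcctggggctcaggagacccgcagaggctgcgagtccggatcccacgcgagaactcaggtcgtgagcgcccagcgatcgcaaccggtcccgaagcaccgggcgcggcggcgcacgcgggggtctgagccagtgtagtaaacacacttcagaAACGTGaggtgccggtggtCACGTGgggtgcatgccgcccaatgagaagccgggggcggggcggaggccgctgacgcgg
Per1, chr11:69098699-69098948, plus strand: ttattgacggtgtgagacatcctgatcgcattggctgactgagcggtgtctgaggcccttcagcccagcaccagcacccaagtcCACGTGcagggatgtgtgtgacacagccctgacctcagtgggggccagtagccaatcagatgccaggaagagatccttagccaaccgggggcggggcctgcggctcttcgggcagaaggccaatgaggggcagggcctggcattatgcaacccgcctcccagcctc
Nr1d1, chr11:98775378-98775627, minus strand: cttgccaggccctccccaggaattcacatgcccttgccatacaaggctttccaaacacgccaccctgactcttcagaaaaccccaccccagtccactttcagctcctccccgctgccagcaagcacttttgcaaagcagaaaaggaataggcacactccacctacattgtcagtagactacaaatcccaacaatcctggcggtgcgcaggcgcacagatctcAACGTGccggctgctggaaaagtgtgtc
Per3, chr4:151044666-151044915, minus strand: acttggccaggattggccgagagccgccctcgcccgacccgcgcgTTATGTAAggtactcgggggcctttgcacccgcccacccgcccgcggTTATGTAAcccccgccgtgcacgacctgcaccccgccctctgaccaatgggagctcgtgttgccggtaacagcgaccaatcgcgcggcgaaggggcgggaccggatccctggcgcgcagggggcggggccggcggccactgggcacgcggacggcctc
Arntl, chr7:113207528-113207557, plus strand: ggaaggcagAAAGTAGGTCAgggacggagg

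Over the windows of 300 bases (250 before to 50 after each start), the E-box CACGTG was in 2 of the 13 windows (Per1 and Cry1) and in 7.15% of all 32851 promoters. Its variant CACGTT was in 3 windows (Cry1, Cry2 and Nr1d1), against 4.68% of all promoters. The D-box was in the Per3 window alone, at 2 places, and in 1.06% of all promoters. The RRE was in 1 Arntl window, against 0.384% of all promoters. Neither the cyclic AMP element TGACGTCA (1.79% of all promoters) nor the DR5 type of retinoic acid response element (0.0974%) was found in these 13 windows. A match is a description of letters, not a site of binding.

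None of the 10 clock genes passed the test for a change with retinoic acid, in either direction. Every one was well above the filter on low counts, with 145 to 3138 reads per library, so all 10 were tested. In edgeR's quasi-likelihood test with Benjamini-Hochberg adjustment over 13700 genes, the smallest adjusted p was 0.142 (Cry1). At that threshold of 0.05 the share of all tested genes called was 9.46% (5.37% higher and 4.09% lower). DESeq2 and limma-voom, also with treatment as the only term, called 0 of the 10. A fit that also used the replicate number differed for Nr1d1, as given in the closing section. At an unadjusted p under 0.05 there were 2, Cry1 and Nr1d1, where 21.6% of all tested genes passed. The 10 log2 fold changes ran from −0.25 (Dbp) to 0.20 (Cry1), with 3 above 0 and 7 below. Their median was −0.10, against −0.008 over all tested genes, and their median absolute value was 0.15, against 0.12. The 95% intervals of all 10 fold changes lay within 1.5-fold in both directions, from 0.687 at the low end of Dbp to 1.29 at the high end of Cry1, and 71.5% of all tested genes had such an interval. These intervals are for single genes and not adjusted for their number. In the authors' deposited table the FDR of the 10 genes ran from 0.264 (Nr1d1) to 0.991 (Cry2).

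**Figure D1:**
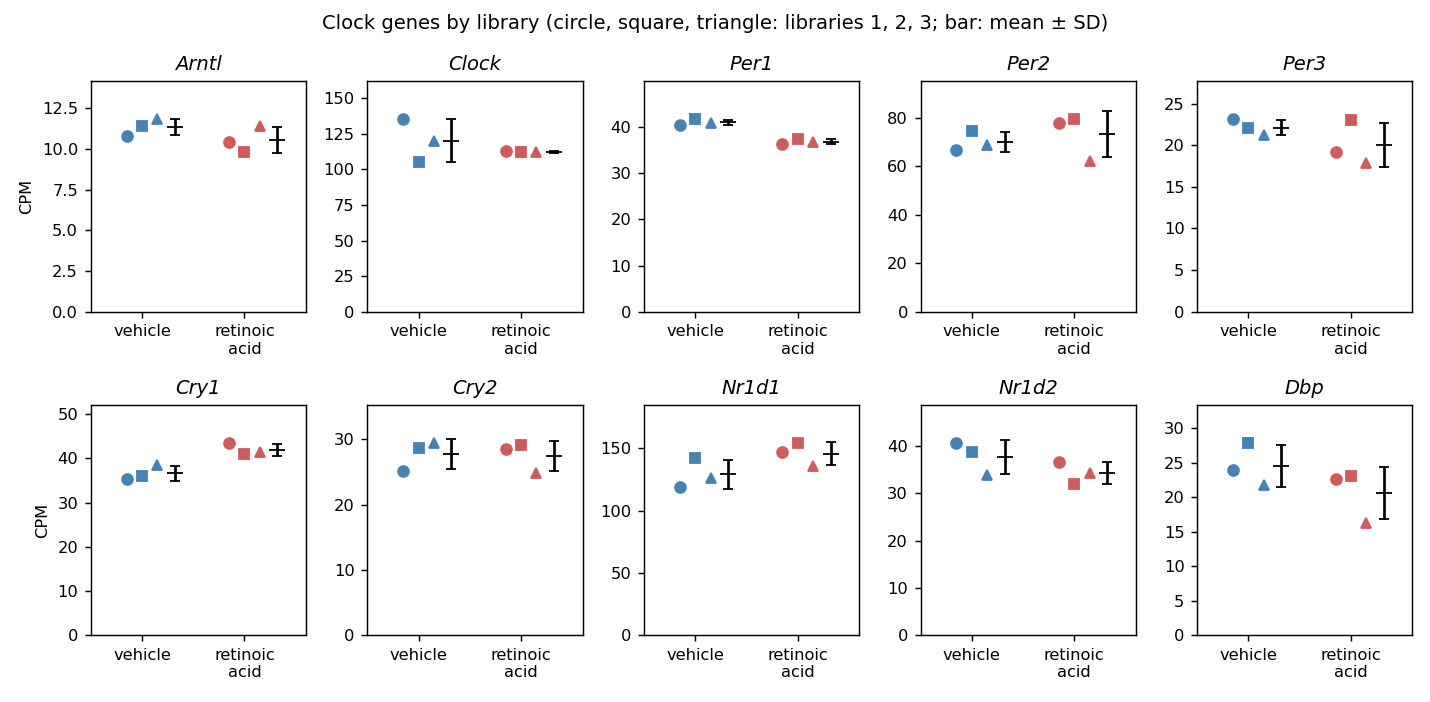
CPM of each clock gene in the 3 vehicle (blue) and 3 retinoic acid (red) libraries, with the mean and SD beside the points and each axis starting at 0. Only Per1 and Cry1 show groups that do not overlap, and both differences are small beside the level.

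Levels are given as CPM, counts per 1000000 of the library size after TMM scaling. Arntl and Clock encode the activating pair. Arntl (ENSMUSG00000055116, mm10 chromosome 7, 113207465 to 113314122) had 10.8, 11.4 and 11.8 CPM in vehicle libraries 1, 2 and 3, and 10.4, 9.83 and 11.4 CPM in retinoic acid libraries 1, 2 and 3. The groups overlapped, with a log2 fold change of −0.10 (95% interval −0.37 to 0.17). Clock (ENSMUSG00000029238, mm10 chromosome 5, 76212177 to 76304548) had 135, 105 and 120 CPM under vehicle and 113, 112 and 112 CPM with retinoic acid. The vehicle libraries spanned the retinoic acid ones, and the log2 fold change was −0.09 (−0.26 to 0.08), or 0.00 without vehicle library 1, the highest of the 6. Bulk RNA cannot tell fewer cells of a type from less RNA per cell, which holds for all values here.

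The Per genes encode the inhibitors that, with the cryptochromes, close the main loop. Per1 (ENSMUSG00000020893, mm10 chromosome 11, 69095217 to 69109960) had 40.5, 41.6 and 40.8 CPM under vehicle and 36.3, 37.4 and 36.8 CPM with retinoic acid. Each retinoic acid library thus lay below each vehicle library, with a within-group SD of 0.572 and 0.536 CPM. At 551 to 774 reads per library, read sampling alone would give a larger scatter, so these SDs understate the noise. The log2 fold change was −0.15 (95% interval −0.31 to 0.01; adjusted p = 0.254, edgeR). Per2 (ENSMUSG00000055866, mm10 chromosome 1, 91415984 to 91459330) had 66.8, 74.6 and 68.6 CPM under vehicle and 78.0, 79.3 and 62.3 CPM with retinoic acid. Retinoic acid libraries 1 and 2 were the highest of the 6 and library 3 the lowest, and the log2 fold change of 0.06 (−0.13 to 0.26) became 0.17 without that library, still short of the threshold (adjusted p = 0.173, edgeR). Per3 (ENSMUSG00000028957, mm10 chromosome 4, 151003652 to 151044665), the gene whose promoter holds the D-boxes above, had 23.1, 22.1 and 21.2 CPM with vehicle. With retinoic acid it had 19.2, 23.0 and 17.9 CPM, and the groups overlapped through library 2 (log2 fold change −0.15, −0.38 to 0.08).

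Cry1 and Cry2 encode the cryptochromes, the stronger repressors of BMAL1 and CLOCK. Cry1 (ENSMUSG00000020038, mm10 chromosome 10, 85131702 to 85185054) had 35.4, 35.9 and 38.4 CPM under vehicle and 43.4, 40.9 and 41.4 CPM with retinoic acid. All 3 retinoic acid libraries lay above all 3 vehicle libraries, at 1.15-fold (95% interval 1.02 to 1.29), with an unadjusted p of 0.0224 and an adjusted p of 0.142 in edgeR's test. Cry2 (ENSMUSG00000068742, mm10 chromosome 2, 92403646 to 92434043) had 25.1, 28.6 and 29.4 CPM under vehicle and 28.5, 29.1 and 24.8 CPM with retinoic acid. These overlapped nearly in full (log2 fold change −0.01, −0.22 to 0.20). Per1 and Cry1 were the 2 of 10 clock genes whose groups did not overlap, where 25.5% of all tested genes had no overlap.

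Nr1d1 and Nr1d2 encode the REV-ERB receptors, repressors that respond to heme. Nr1d1 (ENSMUSG00000020889, mm10 chromosome 11, 98767932 to 98775333) had 119, 142 and 126 CPM under vehicle and 147, 154 and 136 CPM with retinoic acid. The groups overlapped in 1 place, vehicle library 2 lying above retinoic acid library 3, and the fold was 1.13 (95% interval 1.01 to 1.26; unadjusted p = 0.0335 and adjusted p = 0.184, edgeR). Nr1d2 (ENSMUSG00000021775, mm10 chromosome 14, 18204054 to 18239127) had 40.6, 38.7 and 33.8 CPM under vehicle and 36.7, 31.9 and 34.3 CPM with retinoic acid. Its point estimate lay on the other side of no change (log2 fold change −0.14, −0.33 to 0.06). Dbp (ENSMUSG00000059824, mm10 chromosome 7, 45705088 to 45710155), a transcription factor gene and a common readout of clock output, had 23.9, 27.8 and 21.8 CPM under vehicle and 22.6, 23.0 and 16.3 CPM with retinoic acid. The lowest value was that of retinoic acid library 3, without which the log2 fold change of −0.25 (−0.54 to 0.03) became −0.10.

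**Figure D2:**
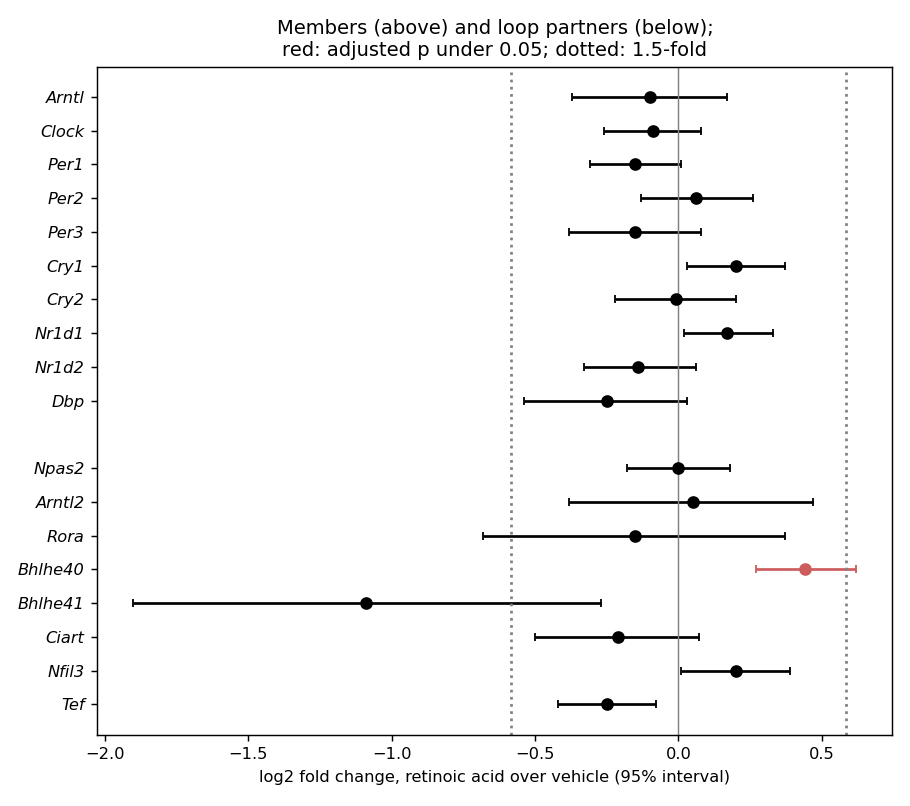
Log2 fold change of each clock gene and, below, of the loop partners named in the text, with 95% intervals and dotted lines at 1.5-fold. All 10 clock genes have their interval between the dotted lines, and Bhlhe40 (red) is the 1 gene called.

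**Figure D3:**
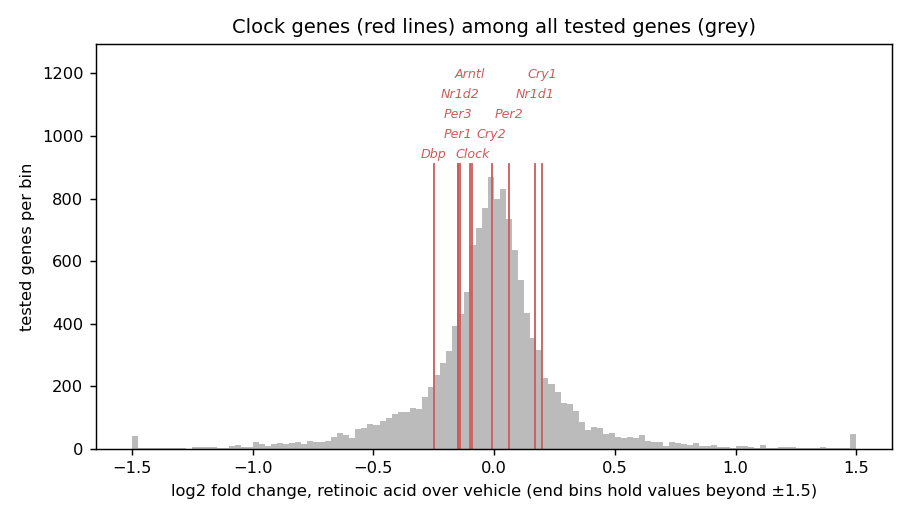
Histogram of the log2 fold changes of the 13700 tested genes (grey) with the 10 clock genes as red lines. The clock genes sit between −0.25 and 0.20, inside the central peak.

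Exons of 4 of the clock genes overlap exons of a gene on the opposite strand. In the GENCODE M21 models, 18% of the exon bases of Dbp (539 bases) are shared with exons of Sphk2, a sphingosine kinase gene on the other strand. Sphk2 had 164 CPM under vehicle and 137 CPM with retinoic acid on average and was called lower (log2 fold change −0.26, adjusted p = 0.0298 in edgeR's test). That call held without retinoic acid library 3 but was lost on leaving out any of the other 5 libraries, with an adjusted p as high as 0.166. Similarly, 8.55% of the exon bases of Nr1d1 (263 bases) are shared with Thra, a thyroid hormone receptor gene on the other strand, which had 151 and 153 CPM (log2 fold change 0.02, adjusted p = 0.926). Cry2 shares 295 exon bases (4.67%) with D930015M05Rik, at 0.957 and 1.14 CPM, and Arntl shares 33 with Gm45355, which was not analysed here. The libraries were directional, but whether counting used the strand is not given in the sources used here, so part of the counts of these clock genes could come from the neighbours, which was not tested. Sphk2, Thra and D930015M05Rik were named after their values were seen.

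Per length of exon the clock genes stood in the same order in both groups but for Per2 and Cry1, which changed places. The scale is reads per kilobase of merged exons per 1000000 reads, a rough one because the transcripts in use are unknown and the deposited and GENCODE ends of Clock differ. Nr1d1 stood far above the others, at 42 ± 3.77 with vehicle and 47.4 ± 2.91 with retinoic acid (SD, n = 3). Next with vehicle came Per2 (12 ± 0.696) and Cry1 (10.9 ± 0.491), whose libraries overlapped. Clock (8.72 ± 1.08), Dbp (8.2 ± 1.02), Per1 (7.27 ± 0.102) and Nr1d2 (6.97 ± 0.656) formed a run in which each overlapped the next. Cry2 (4.38 ± 0.355), Per3 (2.3 ± 0.0973) and Arntl (1.51 ± 0.0735) lay lower, each apart from its neighbours. The activator gene Arntl was thus the lowest and the REV-ERBα gene the highest of the set at this time of harvest, in all 6 libraries.

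**Figure D4:**
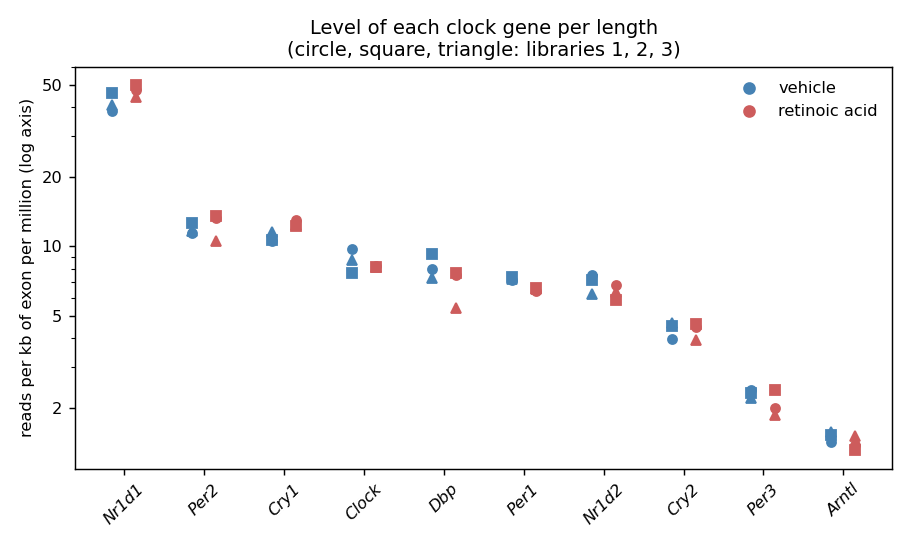
Reads per kilobase of exon per 1000000 (log axis) for each clock gene in vehicle (blue) and retinoic acid (red) libraries, in the order of the vehicle means. Nr1d1 is above 38 in all 6 libraries and Arntl between 1.31 and 1.57.

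Ratios between genes within a library do not depend on the scaling of that library. The log2 ratio of Nr1d1 to Nr1d2 per length was 2.37, 2.69 and 2.71 in the vehicle libraries and 2.82, 3.09 and 2.80 in the retinoic acid libraries. The log2 ratio of Cry1 to Cry2 was 1.41, 1.25 and 1.31 with vehicle and 1.53, 1.41 and 1.66 with retinoic acid. For Nr1d1 and Nr1d2 the groups did not overlap, and for Cry1 and Cry2 they met near 1.41. The log2 ratio of Per1 to Per2 overlapped (−0.72 ± 0.06 and −0.93 ± 0.19), as did that of Dbp to Arntl (2.44 ± 0.20 and 2.29 ± 0.38; SD, n = 3). These ratios are descriptions and were not tested, and the share of other gene pairs without overlap was not computed. Nr1d1 and Cry1 are the 2 clock genes with an unadjusted p under 0.05 in edgeR's test, so their ratios are not separate from those values.

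Library 3 of each group stood apart from the other 4 on the second principal component of all tested genes, which held 20% of the variance. Among the clock genes, Dbp in library 3 lay below the mean of libraries 1 and 2 by 0.24 on the log2 scale with vehicle (difference −0.24) and by 0.49 with retinoic acid (−0.49). Per3 (−0.09 and −0.23), Nr1d1 (−0.05 and −0.14) and Per2 (−0.04 and −0.34) were also lower in library 3 of both groups, and Arntl was higher (0.10 and 0.17). For Cry2 (0.13 and −0.21), Cry1 (0.11 and −0.02) and Nr1d2 (−0.23 and 0.01) the sign differed. Clock and Per1 lay near 0 in both groups. What sets library 3 apart is not given in the labels, and its part in these values was not tested.

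**Figure D5:**
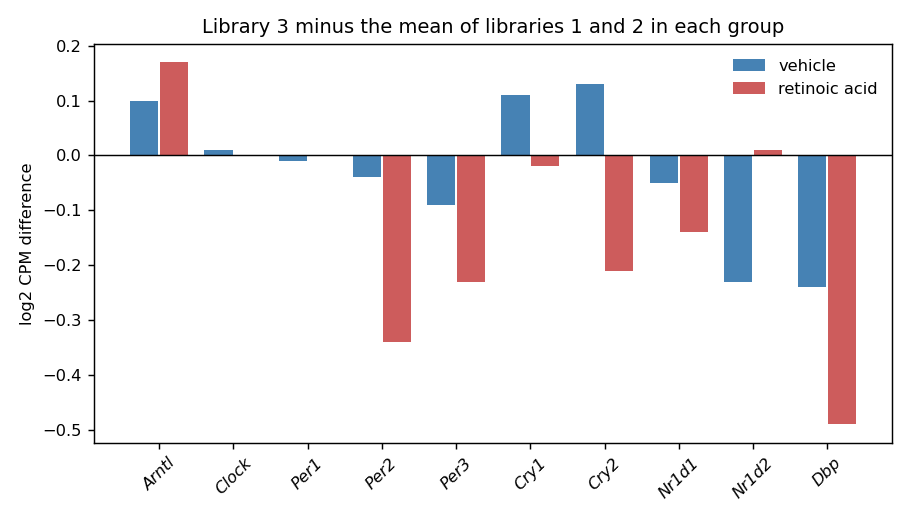
Log2 CPM of library 3 minus the mean of libraries 1 and 2, for each clock gene in vehicle (blue) and retinoic acid (red). Dbp has the lowest bars in both groups, and Arntl is above 0 in both.

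The other transcription factors of the clock loops were taken as a list of 11, of which 9 were tested. One was called, Bhlhe40, and it was higher with retinoic acid. Bhlhe40 encodes DEC1, a repressor that competes for E-boxes. It had 1360, 1470 and 1290 CPM under vehicle and 1960, 2050 and 1590 CPM with retinoic acid, a 1.36-fold rise (log2 fold change 0.44, SE 0.08; adjusted p = 0.00288, edgeR). All 3 retinoic acid libraries lay above all 3 vehicle libraries. With 1 of 9 called, the list's share is close to the 9.46% of all genes, and its median log2 fold change was −0.08. An unadjusted p of 0.05 was passed by 4 of the 9, a larger share than the 21.6% of all tested genes. The list as a whole was not tested.

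The other loop partners did not pass the test, and those given here were named after their values were seen. Bhlhe41, which encodes the related DEC2, lay the other way from Bhlhe40 (1.15 ± 0.0782 and 0.545 ± 0.0713 CPM; log2 fold change −1.09, 95% interval −1.90 to −0.27; adjusted p = 0.0974, edgeR), at a level near the low-count filter. Tef, a relative of Dbp that binds the same D-boxes, had 93.5, 100 and 106 CPM under vehicle and 86.0, 74.2 and 91.4 CPM with retinoic acid. Those groups did not overlap (log2 fold change −0.25; adjusted p = 0.0706, edgeR), and without retinoic acid library 3 Tef was called lower (−0.31, adjusted p = 0.0105). Nfil3, which opposes DBP and TEF at D-boxes, had a log2 fold change of 0.20 (95% interval 0.01 to 0.39, adjusted p = 0.198, edgeR). Its groups stood just apart, the highest vehicle library at 52.8 CPM and the lowest retinoic acid library at 52.9 CPM. Npas2, which can stand in for Clock, was at 62.9 ± 4.96 and 63 ± 5.27 CPM (SD, n = 3). Rora (−0.15), Ciart (−0.21) and Arntl2 (0.05), like Npas2, had intervals that included 0. Rorb and Hlf had too few reads to be tested, 34 and 31 over the vehicle libraries and 21 and 12 over the retinoic acid libraries.

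Enzymes that modify clock proteins were mostly not called, with 1 of 24 higher and 0 lower in edgeR's test (2 and 0 with DESeq2, 1 and 0 with limma-voom), below the 9.46% of all tested genes called. An unadjusted p of 0.05 was passed by 5 of the 24, near the 21.6% of all tested genes. The median log2 fold change of this list was 0.02. The riser was Prkaa2, the catalytic α2 subunit gene of AMP-activated kinase, which marks cryptochromes for breakdown. It had 225, 218 and 209 CPM under vehicle and 366, 326 and 310 CPM with retinoic acid, 1.54-fold higher (SE of the log2 fold change 0.07, adjusted p = 3.5e-05, edgeR). The casein kinase gene Csnk1d, whose product phosphorylates PER, had a log2 fold change of 0.02 (95% interval −0.10 to 0.13). Gsk3b, a target of CHIR99021, had 0.06 (−0.07 to 0.20). Csnk1d and Gsk3b were also named after their values were seen. Without retinoic acid library 3, 3 members were higher, Csnk1a1 and Nampt besides Prkaa2.

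Among 19 nuclear cofactors, 1 was higher and 2 were lower, where 5.37% of all tested genes were higher and 4.09% lower. The list's median was −0.08. Of the 19, 7 passed an unadjusted p of 0.05, a larger share than the 21.6% of all tested genes, with no test of the list. Tbl1xr1, a subunit of the NCoR corepressor complex through which REV-ERBs act, rose 1.25-fold from 78.3 ± 1.31 to 97.9 ± 8.66 CPM (SD, n = 3; adjusted p = 0.0111, edgeR). It was not called without retinoic acid library 1 or 2 (adjusted p = 0.069 and 0.057). Timeless and its partner Tipin, which act in replication fork protection, fell by 0.52 and 0.47 on the log2 scale (adjusted p = 0.0361 and 0.0416). The Timeless call was lost on leaving out library 2 or 3 of either group (adjusted p as high as 0.132), and that of Tipin on leaving out library 1 or 2 of either group (as high as 0.18) and with DESeq2 (0.069) or limma-voom (0.0501). No library left out kept both: the number lower was 1 or, without vehicle library 2 or retinoic acid library 2, 0. Cell cycle genes moved beside them: of 10 tested, 8 were lower and none higher, with a summed level of 589 to 652 CPM under vehicle and 408 to 469 CPM with retinoic acid. Their part in the Timeless and Tipin values was not tested.

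Of 13 signal-dependent factors and glucocorticoid targets that feed into the Per genes, 2 were lower and 0 higher in edgeR's test (also 2 and 0 with DESeq2 and with limma-voom), where 4.09% of all tested genes were lower. An unadjusted p of 0.05 was passed by 3 of the 13, near the 21.6% of all tested genes. Nr3c1, the glucocorticoid receptor gene, fell by 0.21 on the log2 scale (SE 0.06; adjusted p = 0.0435), from 189 ± 8.35 to 163 ± 7.84 CPM (SD, n = 3). Tsc22d3, a glucocorticoid target that is also in the output list below, fell by 0.30 (SE 0.08; adjusted p = 0.0374), from 102 ± 5.47 to 82.4 ± 10.2 CPM. Neither overlapped between groups. The call of Nr3c1 was lost without every library but retinoic acid library 2 (adjusted p as high as 0.193), and that of Tsc22d3 without every library but retinoic acid library 3 (up to 0.164). Leaving out any vehicle library or retinoic acid library 1 thus gave 0 lower genes, and leaving out either of the other retinoic acid libraries gave 1. In the same list Klf9 (log2 fold change 0.15, unadjusted p = 0.0432 in edgeR's test) and Sgk1 (0.38, −0.13 to 0.89) lay the other way. Fkbp5 (−0.23, −0.48 to 0.02) lay lower. With treatment as the only term, Klf9, Sgk1 and Fkbp5 were not called, and they were named after their values were seen.

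Clock-controlled genes, including intestinal transporters with known rhythms, were higher in 3 and lower in 1 of 16 tested, where 5.37% of all tested genes were higher and 4.09% lower. Por, the electron donor of cytochrome P450 enzymes, had 222, 262 and 247 CPM under vehicle and 423, 400 and 416 CPM with retinoic acid, 1.69-fold higher (adjusted p = 3.37e-06, edgeR). Klf10, a transcription factor gene, rose 1.65-fold from 155 ± 13.2 to 256 ± 30.1 CPM (adjusted p = 7.66e-05). Cdkn1a, which encodes the cell cycle inhibitor p21, rose 1.33-fold from 701 ± 25.4 to 931 ± 54.6 CPM (adjusted p = 0.00042). The lower one was Tsc22d3. Wee1, a mitotic kinase gene and a textbook clock output, was not called (log2 fold change −0.23, −0.50 to 0.03), nor was Alas1, the first enzyme of heme synthesis (0.06, −0.09 to 0.22). Over the 16 tested outputs the median log2 fold change was −0.05. Of these, 7 passed an unadjusted p of 0.05, a larger share than the 21.6% of all tested genes, again with no test of the list.

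The sugar and sodium transporters of that list varied widely among libraries. Slc2a2, the basolateral glucose carrier gene, had 10.9, 18.3 and 17.8 CPM under vehicle and 2.58, 4.68 and 14.8 CPM with retinoic acid, so that retinoic acid library 3 lay among the vehicle libraries. It was not called over all 6 (log2 fold change −1.08, adjusted p = 0.135, edgeR) and was without retinoic acid library 3 (−2.15, adjusted p = 7.59e-07). The same held for Slc5a1, the sodium-glucose cotransporter gene (−0.36, adjusted p = 0.053; −0.52 and 6.36e-05 without that library), Slc9a3 (−1.24, 0.0673; −1.78 and 0.00508) and Slc2a5 (−0.78, 0.314; −1.59 and 0.00305). With Tsc22d3 this made 5 lower members without retinoic acid library 3, while without any other single library there were 0. Over all 6 libraries limma-voom called Slc2a2 (adjusted p = 0.0442), Slc5a1 (0.0437) and Slc9a3 (0.0447) lower, and all 4 were called lower when no low-count filter was used. Abcb1a, a drug exporter gene, was at 0.01 (−0.16 to 0.19) and Slc15a1, a peptide carrier gene, at 0.09 (−0.71 to 0.89). Wee1, Alas1 and the transporters were named after their values were seen.

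By the root mean square difference of log2 CPM from the vehicle mean over the 6 libraries, 3 genes of 13699 had the pattern nearest to that of Cry1, the clock gene with the smallest p. These were Clip2 (difference 0.024; 109 CPM under vehicle and 127 CPM with retinoic acid), Clic1 (0.026; 292 and 334 CPM) and Gipc2 (0.028; 144 and 166 CPM). The median over all genes was 0.212.

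Depth was 14919144 to 21833846 reads per library. Of the 13700 tested genes 736 (5.37%) were higher and 560 (4.09%) lower, and 21.6% had an unadjusted p under 0.05. The numbers higher and lower became 477 and 355 without vehicle library 1, and 528 and 346 without vehicle library 2. They were 443 and 289 without retinoic acid library 1. The epithelial markers Epcam, Cdh1, Krt8, Krt18, Krt19, Cdx2, Cldn7 and Tff3 were all present, at a summed 11300 to 12100 CPM, and 0 of 8 were called (3 at an unadjusted p under 0.05). Of 8 stem cell markers 5 were lower and none higher, with a summed 1960 to 2060 CPM under vehicle and 1290 to 1390 CPM with retinoic acid. Of 10 enterocyte markers 2 were higher and 1 was lower (1230 to 1380 and 1230 to 1460 CPM). Of 22 markers of immune, endothelial, stromal, muscle and neural cells, 17 were too low to be tested and 2, Cd68 and Cd14, were higher, with a summed 45.9 to 47.7 CPM under vehicle and 58.2 to 63.3 CPM with retinoic acid. Ptprc, which marks all white blood cells, had 2 reads over the vehicle libraries and 0 over the retinoic acid libraries. The part of these shifts in the values above was not tested.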

How the data were processed

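Directional polyA RNA-seq of 6 organoid libraries was used. The deposited table holds raw read counts per gene, with the authors' p-value, FDR and log2 fold change from DESeq, per the file headers. Reads were aligned to mm10, per the submitters' processing notes; the sources used here do not give the aligner, annotation or counting rules. Sample titles gave the group and replicate number. Of 152 list entries looked up, 150 were matched by symbol and 2 (Ciart, Kmt2a) by gene ID.

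Counts of all rows were fitted with edgeR 4.0.16 in R 4.3.3: filterByExpr (13700 rows kept), TMM, glmQLFit and glmQLFTest with treatment as the only term, two-sided, Benjamini-Hochberg over all rows, threshold 0.05. The SE is the log2 fold change divided by the square root of F, and 95% intervals use it with the fit's degrees of freedom. Steps were tested on simulated counts. Exon lengths are merged GENCODE M21 exons. Libraries of a group differed beyond sampling noise (chi-square per row 3.96 to 10.5), so none was counted as a repeat; the counts cannot tell separate cultures from separate preparations of one culture.

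The members and lists were chosen with earlier results of these data known. Named genes are the 10 members, up to 4 called genes per other clock list by smallest p, and the 3 nearest to the member with the smallest p. Others are said to be named after their values were seen. The alternatives were DESeq2 size factors, no filter, a filter of 10 counts, DESeq2 1.42.0, limma-voom (limma 3.58.1), a replicate block and each library left out. Values of some listed genes are not reported here.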

Additional observations from a re-analysis of the deposited data

How the results depend on the processing

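None of the 10 clock genes was called under any alternative but the replicate block, in which Nr1d1 was called higher (log2 fold change 0.18, adjusted p = 0.0296), so that 1 of 10 was. The numbers shared by the titles did not meet the rule for pairing, because the correlation of number 2 fell just short of it. Deviations from the group means correlated at 0.128, 0.098 and 0.257 for numbers 1, 2 and 3. Between different numbers the correlations were −0.169 to 0.06, so each library correlated best with its own number. Pairing is thus not settled by these values. With the block 1224 genes were higher and 1052 lower overall. The counts by list became, with the block, 1 lower loop partner, 3 higher and 1 lower modifiers, 4 lower cofactors, 1 higher input gene, and 4 higher and 5 lower outputs; with no low-count filter, 1 lower loop partner, 2 higher modifiers and 5 lower outputs; with DESeq2, 2 higher modifiers and 1 lower cofactor; with limma-voom, 1 lower cofactor and 4 lower outputs. With 1 library left out, 443 to 978 genes were higher and 289 to 787 lower; lower loop partners numbered 0 to 1, higher modifiers 1 to 3, higher cofactors 0 to 1, lower cofactors 0 to 1, lower input genes 0 to 1, higher outputs 3 to 4 and lower outputs 0 to 5. The sign of uncalled values near 0 changed with 1 library left out, in the ranges −0.18 to 0.0016 for Clock, −0.0811 to 0.0557 for Cry2, −0.0545 to 0.0704 for Npas2, −0.12 to 0.19 for Arntl2 and −0.0217 to 0.0759 for Thra; the cause was not tested. Bhlhe40, Prkaa2, Por, Klf10 and Cdkn1a were called under all 12 alternatives. With 3 libraries a group, the half-width of the 95% interval had a median of 0.21 on the log2 scale over all tested genes, before any adjustment for the number of genes.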
